A study of Mus musculus with 14 samples.

Results

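The livers compared here came from mice given either of 2 operations on the gut and bile flow, with no reference to mice that had no surgery: 4 livers after bile was led from the gallbladder into the ileum, an operation abbreviated GB-IL, and 5 after Roux-en-Y gastric bypass (RYGB), 9 of the 14 livers of the series. All were chosen by their labels and all 25212 genes of the count table were considered. The mice were male C57BL/6, kept on a high-fat diet before and after surgery, and liver was taken 8 weeks after the operation. In GB-IL the common bile duct was ligated and the gallbladder joined to the distal ileum, so that bile bypassed most of the small intestine while food did not. In RYGB a small gastric pouch was joined to the jejunum, so that food bypassed the stomach and duodenum. No allele or agent was added to either group, and each library came from 1 liver. Their ages at collection are not given in the labels. A p-value here sets the difference between the groups against the spread between these livers. The labels say nothing of shared litters, cages or days, so whether the livers are independent is not known.

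Bile acids are made from cholesterol in hepatocytes, secreted into bile, taken back up in the ileum and returned to the liver in portal blood. In the ileum and liver they activate the receptor FXR, which lowers their synthesis through the repressor SHP and the gut hormone FGF15. The liver also filters bacterial products from portal blood through its Kupffer cells, the resident macrophages, and answers cytokines with acute phase proteins such as serum amyloid A and hepcidin.

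Totals of counted reads per library spanned 19231679 to 26131278 in GB-IL and 18223135 to 28656631 in RYGB, and did not separate the groups (p = 0.937 by a two-sided exact permutation test, which at these group sizes can reach 0.00794 at the least). Expression is given as CPM, a gene's reads relative to all counted reads of the library. Hepatocyte identity was clear in all 9 livers: Alb, encoding albumin, lay between 56511 and 117910 CPM. A list of 22 hepatocyte markers summed to 95380 to 136900 CPM in GB-IL and 133800 to 165000 in RYGB. In bulk tissue, fewer cells of a type and less RNA per cell cannot be told apart.

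Several libraries stood apart. GB-IL liver 1 held RNA of tissues outside the liver: a list of skeletal muscle genes summed to 2000 CPM there and to at most 3.432 in the other 8 livers, and a list of exocrine pancreas genes summed to 1720 CPM against at most 23.45. GB-IL liver 3 had the highest sums for neutrophils (494.3 CPM), MHC class II and dendritic cells (1527 CPM) and T and NK cells (37.61 CPM). RYGB liver 5 had 174.5 CPM of neutrophil genes against 9.963 to 15.97 in the other RYGB livers, and the highest sum of an intestinal list (4956 CPM), which includes the apolipoprotein gene Apoa4 that liver also uses. GB-IL liver 4 lay among the RYGB livers on the leading axis of variation. Across genes, its log2 CPM correlated with RYGB livers 1 to 4 at r of 0.9654 to 0.9769 and with RYGB liver 5 at 0.9406. With the other GB-IL livers its r was 0.8302 to 0.9411. GB-IL liver 3 was likewise closer to the RYGB livers, at 0.9382 to 0.9539, than to GB-IL livers 1 and 2, at 0.8735 and 0.9164. Such an r has genes, which are not replicates, as its points. Nothing else measured here checks that a library matches its label. If that of GB-IL liver 4 did not, the GB-IL values and those without that liver would mean something else. GB-IL liver 4 also held 35 reads of Lep and 49 of Adipoq, the fat cell hormones leptin and adiponectin. The other GB-IL livers together held 0 and 8, and RYGB 0 and 2. An adipocyte gene list summed to 4983, 3561, 3627 and 3064 CPM in GB-IL livers 1 to 4. RYGB livers spanned 2038 to 3822 CPM for that list, so liver 4 was lowest within GB-IL and inside the RYGB range.

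Signs of library composition moved with the livers. The share of counts from mitochondrial genes was 6.46, 3.99, 3.52 and 9.38% in GB-IL livers 1 to 4 and 7.02 to 8.61% in RYGB, so livers 1 to 3 were below and liver 4 above every RYGB liver. RNAs without a poly(A) tail, which an mRNA kit and a total RNA kit capture differently, summed to 210.8, 164.3, 126.4 and 121.3 CPM in GB-IL and 116.9 to 137 CPM in RYGB, and 3 of 4 tested were higher in GB-IL at an unadjusted p below 0.05. Their part in the results was not tested. Values are therefore also given without GB-IL liver 1 or without GB-IL liver 4. Leaving out a liver because of its values is a description of the other 8 and no independent test.

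**Figure D1:**
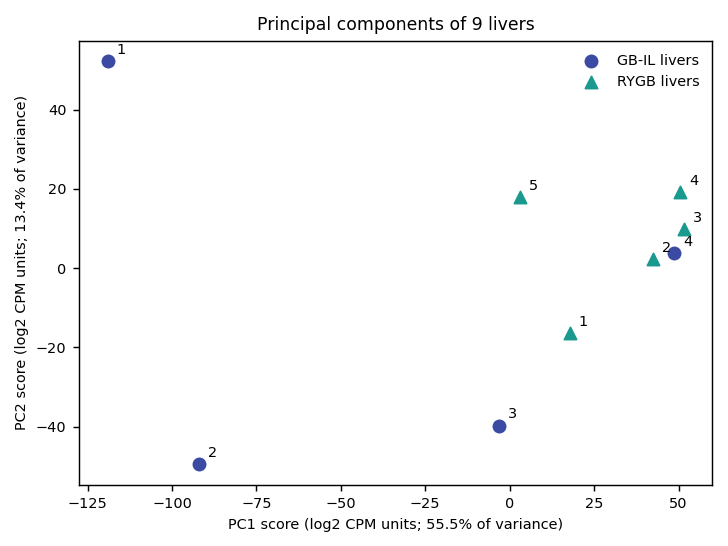
Scores of the 9 livers on the leading 2 principal components of log2 CPM over the genes tested (PC1 on the x axis, PC2 on the y axis), with GB-IL livers as circles and RYGB livers as triangles, numbered within each group. GB-IL livers 1 and 2 lie at PC1 scores of -119 and -92.1, GB-IL liver 3 at -3.23, and GB-IL liver 4 at 48.8, inside the RYGB range of 3.05 to 51.5.

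The GB-IL livers varied more among themselves than the RYGB livers. The common biological coefficient of variation, edgeR's estimate of the spread between animals beyond counting error, was 0.538 within GB-IL and 0.294 within RYGB, and it was 0.508 among GB-IL livers 1 to 3. PC1 held 55.5% and PC2 13.4% of the variance. Each GB-IL liver was also set against the range of the 5 RYGB livers, gene by gene. GB-IL liver 1 lay above that range for 34.3% of genes and below it for 37%, GB-IL liver 2 for 34.4% and 35.8%, and GB-IL liver 3 for 23.9% and 20.2%. GB-IL liver 4 lay above it for 17.5% and below it for 17.5%. Counts of list genes outside that range, given below, are to be read beside these shares.

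The comparison asked which liver transcripts differed between the operations. With all 9 livers, 0 of 14195 genes tested (0%) passed a false discovery rate (FDR) of 0.05, adjusted after Benjamini and Hochberg, in edgeR's quasi-likelihood test, and the smallest adjusted p, 0.269, was shared by 408 genes. At an unadjusted p below 0.05, 1521 genes were higher in GB-IL (10.7% of those tested) and 677 lower (4.77%). The number past the FDR was 266 higher with 67 lower by DESeq2, 207 with 34 by the exact test of edgeR, and 0 by voom using sample quality weights. Groups did not overlap for 178 genes higher in GB-IL (1.25%) and 226 lower (1.59%). With livers split at random into groups of 4 and 5, 0.794% of genes would not overlap in each direction on average. Once GB-IL liver 4 was set aside, 693 of 14361 genes tested were higher past the FDR (4.83%) and 290 lower (2.02%). Of the 948 of these that were also tested with all 9 livers, 944 had the same sign there and 103 had groups without overlap. They were chosen in livers that are all part of the 9, so a shared sign was nearly fixed in advance. Without GB-IL liver 1, 0 genes passed the FDR by edgeR's quasi-likelihood test, with 1023 higher (7.06%) and 604 lower (4.17%) at an unadjusted p below 0.05 among 14491 tested. Scaling by total count alone moved the median log2 difference of all genes from 0.03 to -0.09 and gave 966 higher and 974 lower at an unadjusted p below 0.05. Since no gene passed the FDR with all livers, the genes below are described by their values in each liver. Counts for gene lists are to be read beside the shares over all genes given here. Log2 differences are GB-IL minus RYGB, with a standard error (SE). Where a tested gene's levels are given in the paragraphs below with no other adjusted p, it was 0.269 by edgeR's quasi-likelihood test.

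Hepcidin, the liver hormone that limits iron release into plasma, showed the widest gap between groups that did not overlap. Hamp (ENSMUSG00000050440, chr7:30942368-30944032 of mm10, minus strand) stood at 3226, 480, 524 and 169 CPM in GB-IL livers 1 to 4. In RYGB livers 1 to 5 it stood at 0.599, 6.53, 46.2, 32.7 and 8.64 CPM. Every GB-IL liver lay above every RYGB liver, with a log2 difference of 5.86 (SE 1.24) that was 4.36 with GB-IL liver 1 left out and 6.22 with liver 4 left out. Its neighbouring paralog Hamp2 (ENSMUSG00000056978, chr7:30922372-30924681, minus strand) had 234, 35.3, 59.1 and 109 CPM in GB-IL. In RYGB it had 0.436, 2.99, 5.65, 12 and 0.91 CPM, again without overlap (log2 difference 4.63, SE 0.91). The copies are close in sequence and how the authors' counting treated reads that fit both is not given in the sources used here, so the split between them is uncertain.

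The promoter windows of both hepcidin genes are shown because these genes had the widest non-overlapping gap and lie side by side. Each runs 5' to 3' on the minus strand of GRCm38.p6, from 250 bases before the RefSeq start to 50 after it. Capitals mark matches to TTCNNNGAA, the form bound by STAT factors, and to TGACTCA, the AP-1 form, which reads TGAGTCA on this strand. The windows lie at chr7:30943980-30944279 for Hamp and chr7:30924132-30924431 for Hamp2.
Hamp: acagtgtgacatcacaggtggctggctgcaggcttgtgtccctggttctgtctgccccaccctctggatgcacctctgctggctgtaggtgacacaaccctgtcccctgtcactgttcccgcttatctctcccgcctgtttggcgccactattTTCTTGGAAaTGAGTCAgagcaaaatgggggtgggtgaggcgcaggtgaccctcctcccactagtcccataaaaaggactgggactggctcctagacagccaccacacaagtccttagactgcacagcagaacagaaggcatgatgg
Hamp2: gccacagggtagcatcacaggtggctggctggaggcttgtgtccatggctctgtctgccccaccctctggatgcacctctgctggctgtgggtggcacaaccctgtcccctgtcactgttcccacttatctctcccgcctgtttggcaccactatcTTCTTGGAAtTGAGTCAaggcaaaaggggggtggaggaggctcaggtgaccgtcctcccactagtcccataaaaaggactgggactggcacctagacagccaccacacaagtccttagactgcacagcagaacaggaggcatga
Aligned end to end, 276 of 303 columns were identical (91.1%). The STAT form began 97 bases before the start in Hamp and 94 in Hamp2, and the AP-1 form 87 and 84 bases before it, with no overlap between the motifs. Searched on both strands, TTCNNNGAA was present in 8.3% of all 32851 RefSeq promoter windows and TGACTCA in 5.2%. Among acute phase genes with a window, 7 of 27 held TTCNNNGAA (25.9%): Apcs, Fga, Fgb, Hamp, Itih4, Socs3 and Steap4. TTCNNNGAA was added to the search after the values had been seen. A match is a string of letters and not a measured binding site.

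Acute phase proteins, made by hepatocytes in inflammation, were above RYGB for most genes of the list in GB-IL livers 1 to 3, the livers whose mitochondrial share was below that of every RYGB liver. Of 32 genes tested, 29 had a positive difference, 19 of them at an unadjusted p below 0.05 (59.4%), none was lower at that threshold, and the median log2 difference was 1.36 against 0.03 over all genes. Without GB-IL liver 4, 18 of 32 were higher past the FDR with a median of 1.61. Without GB-IL liver 1, 14 of 32 were higher at an unadjusted p below 0.05. Livers 1 to 3 lay above every RYGB liver for 26, 24 and 28 of the 32 genes, and liver 4 for 1, while liver 4 lay below every RYGB liver for 14. Over all genes, the shares above in livers 1 to 4 were 34.3%, 34.4%, 23.9% and 17.5%. The share below in liver 4 was 17.5%.

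Saa2, a serum amyloid A gene, had 1615, 1345, 14537 and 43.9 CPM in GB-IL livers 1 to 4 and 21.9, 25.6, 24.4, 11.9 and 45.3 CPM in RYGB. GB-IL liver 4 thus fell between RYGB livers 2 and 5, and the log2 difference was 7.41 (SE 1.33). Saa1 is a near-identical copy of Saa2, and the split of reads between them is uncertain. Saa3, the serum amyloid A of macrophages and fat, had 103, 139, 217 and 4.86 CPM in GB-IL and 2.65 to 7.13 CPM in RYGB, a log2 difference of 4.64 (SE 0.79). Only GB-IL liver 4 overlapped with RYGB for Saa3. With that liver left out both genes were past the FDR.

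Genes that sense bacterial endotoxin and feed back on NF-kB, the transcription factor downstream, were also higher in GB-IL livers 1 to 3. Of 30 tested, 16 were higher at an unadjusted p below 0.05 and none lower, 3 of the 30 were higher without overlap, and the median log2 difference was 0.75. Without GB-IL liver 4, 14 of 30 were higher past the FDR, beside 4.83% of all genes. Without GB-IL liver 1, 13 of 31 were higher at an unadjusted p below 0.05, beside 7.06% of all genes. Cd14, the co-receptor that hands endotoxin to TLR4, had 497, 148, 56.9 and 5.6 CPM in GB-IL. Its RYGB values were 4.9, 3.09, 3.41, 3.41 and 6.44 CPM, with a log2 difference of 5.38 (SE 0.98). GB-IL liver 4 was inside the RYGB range. Il1b, the inflammasome cytokine interleukin-1 beta, had 14, 20.3, 11.8 and 3.08 CPM in GB-IL and 1.25 to 3.65 CPM in RYGB (log2 difference 2.50, SE 0.49). Counts of Il6, the cytokine that drives much of the acute phase response, were too low to test: 4, 2, 0 and 2 reads in GB-IL livers and 2, 0, 0, 0 and 2 in RYGB livers.

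Most macrophage genes had a positive difference, though not every GB-IL liver lay above RYGB. Of 23 tested genes of lipid-associated and monocyte-derived macrophages, 14 were higher at an unadjusted p below 0.05 and none lower, with a median log2 difference of 1.46 and 12 of 24 past the FDR without GB-IL liver 4. Their summed level was 2350 to 2943 CPM in GB-IL and 1695 to 2150 CPM in RYGB, without overlap. By gene, GB-IL livers 1 to 3 lay above every RYGB liver for 16, 15 and 17 of the 23, beside 34.3%, 34.4% and 23.9% of all genes. GB-IL liver 4 lay above every RYGB liver for 4 (17.4%, beside 17.5% of all genes) and below for 4. Clec7a, encoding the fungal glucan receptor dectin-1, had 16.3, 11.2, 15.5 and 8.65 CPM in GB-IL and 4.96, 3.34, 5.62, 4.71 and 4.69 CPM in RYGB. All 4 GB-IL livers were above RYGB, by a log2 difference of 1.46 (SE 0.25). Ms4a7, a membrane gene of monocyte-derived macrophages, was also without overlap at 1.8 to 7.99 CPM against 0.967 to 1.2. Gpnmb, a marker of lipid-laden macrophages, had 212, 93.2, 16.3 and 0.779 CPM in GB-IL and 0.349 to 3.67 CPM in RYGB. GB-IL liver 1 thus had the most and GB-IL liver 4 was inside the RYGB range, with a log2 difference of 5.90 (SE 1.29). Trem2, a lipid receptor of the same cells, had 14.1, 21.6, 4.06 and 2.6 CPM against 1.94 to 3.4.

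Of 16 Kupffer cell identity genes, 6 were higher at an unadjusted p below 0.05 and none lower, with a median log2 difference of 0.69. GB-IL livers 1 to 4 lay above every RYGB liver for 5, 7, 14 and 5 of the 16 (31.2%, 43.8%, 87.5% and 31.2%). Over all genes, the shares above were 34.3%, 34.4%, 23.9% and 17.5%, so liver 1 was below its share. Livers 1 and 2 lay below every RYGB liver for 8 and 4, beside 37% and 35.8% of all genes, and livers 3 and 4 for 0. Summed levels of the list overlapped, at 938.1 to 2479 CPM in GB-IL and 683.9 to 1467 CPM in RYGB. Clec1b, the receptor CLEC-2 of Kupffer cells and platelets, had 29.2, 29.3, 24.2 and 14.4 CPM in GB-IL and 11.1, 7.48, 9.64, 9.63 and 13.9 CPM in RYGB (log2 difference 1.23, SE 0.25). The groups did not overlap, with GB-IL liver 4 just above RYGB liver 5. Clec4f, a marker restricted to Kupffer cells, overlapped fully, at 42.6 to 276 CPM in GB-IL and 108 to 226 CPM in RYGB (log2 difference 0.12, SE 0.44, adjusted p 0.891 by edgeR's quasi-likelihood test), and changed sign when GB-IL liver 3 was left out. Vsig4 and Timd4, also Kupffer cell markers, overlapped too. Vsig4 had 29.8 to 76.7 CPM in GB-IL and 27.9 to 57.4 CPM in RYGB. Timd4 had 2.49, 3.16, 30.9 and 20.8 CPM in GB-IL and 7.82 to 19.9 CPM in RYGB. Their adjusted p were 0.578 and 0.847 by edgeR's quasi-likelihood test. C1qb, a complement subunit made by macrophages, had 185, 283, 221 and 75.8 CPM in GB-IL and 46.4 to 115 CPM in RYGB.

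Several further genes did not overlap. Slfn2, a schlafen gene of immune cells, had the smallest p among non-overlapping genes with a mean of at least 5 CPM, with 30.1, 19.9, 24.5 and 8.61 CPM in GB-IL. Its RYGB values were 7.24, 3.69, 4.66, 3.74 and 5.42 CPM, and its log2 difference was 2.07 (SE 0.35). The lowest GB-IL liver was just above the highest RYGB liver. Ctss, encoding the antigen-processing protease cathepsin S, had 196, 161, 178 and 63.1 CPM in GB-IL and 57.6, 35.9, 43.7, 34.2 and 58.5 CPM in RYGB (log2 difference 1.70, SE 0.33). Fgl2, a secreted fibrinogen-like protein of immune cells, spanned 6.96 to 12.6 CPM against 3.21 to 4.19. The C-type lectin gene Clec4a1 spanned 6.94 to 17.9 CPM against 2.36 to 5.5. Apobec3, a cytidine deaminase that restricts retroviruses, spanned 6.09 to 17.7 CPM against 3.04 to 5.39. Ighm, the heavy chain of IgM, had 71.1, 20.1, 112 and 18 CPM in GB-IL and 7.24 to 11.7 CPM in RYGB, although 0 of 7 B and plasma cell genes tested reached an unadjusted p below 0.05 by edgeR's quasi-likelihood test.

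**Figure D2:**
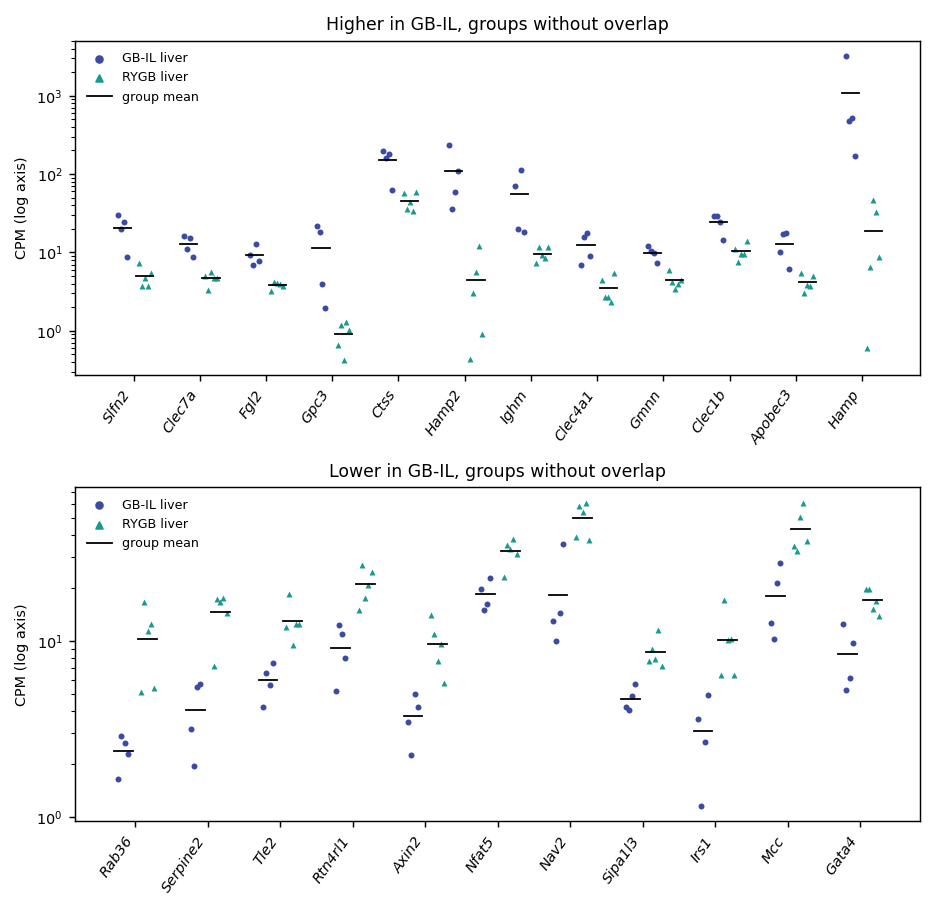
CPM in each liver (y axis, log scale) for genes higher (upper panel) and lower in GB-IL (lower panel) with the smallest p among those whose groups did not overlap and whose mean was at least 5 CPM, with GB-IL livers as circles, RYGB livers as triangles and bars at the group means. Hamp spans 169 to 3226 CPM in GB-IL against 0.599 to 46.2 in RYGB, while Irs1 sits between 1.15 and 4.9 in GB-IL against 6.41 to 17.

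Neutrophil genes varied widely between livers of each group. Of 14 tested, 14 had a positive difference and 7 were higher at an unadjusted p below 0.05, with a median log2 difference of 2.52. The summed list was 183.2, 87.04, 494.3 and 8.457 CPM in GB-IL and 15.97, 9.963, 10.26, 12.82 and 174.5 CPM in RYGB. GB-IL livers 1 to 3 and RYGB liver 5 were therefore high and GB-IL liver 4 lowest. Reads of Mpo, the granule enzyme myeloperoxidase of immature neutrophils, were 0, 5, 886 and 4 in GB-IL and 1, 5, 4, 1 and 222 in RYGB, so that a single liver of each group gave nearly all of them. Clec4e, a lectin receptor of neutrophils and macrophages, did not overlap, at 6.04, 0.748, 4.77 and 0.482 CPM in GB-IL and 0.213 to 0.35 CPM in RYGB. Fpr2, a receptor for bacterial formyl peptides, had 5.14, 6.44, 13.5 and 4.38 CPM in GB-IL and 0.631 to 1.75 CPM in RYGB (log2 difference 2.49, SE 0.41). Of 19 genes of leukotrienes, prostanoids and formyl peptide receptors, 8 were higher at an unadjusted p below 0.05 and none lower.

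Of 21 chemokines and their receptors tested, 8 were higher and 1 lower at an unadjusted p below 0.05, although the summed list overlapped, at 358.7 to 687.2 CPM in GB-IL and 476.3 to 545.4 in RYGB. Cxcl13, which draws B cells, had 58.2, 54.2, 110 and 6.68 CPM in GB-IL and 1.56 to 17 CPM in RYGB. Cxcl16, a membrane-bound chemokine for T and NKT cells, had 22.5, 38.8, 30.4 and 10.7 CPM against 7.43 to 12.5. In both, livers 1 to 3 were above every RYGB liver and liver 4 was not. Of 12 MHC class II and dendritic cell genes, 6 were higher at an unadjusted p below 0.05, but the median log2 difference of 1.09 was 0.29 without GB-IL liver 3. Cd74, the invariant chain, had 132, 167, 807 and 128 CPM in GB-IL and 170, 87.1, 69.5, 85.8 and 63.3 CPM in RYGB (adjusted p 0.28 by edgeR's quasi-likelihood test).

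Bile duct genes were higher in GB-IL livers 1 and 2. Of 17 cholangiocyte and ductular cell genes tested, 10 were higher and 1 lower at an unadjusted p below 0.05. The median log2 difference was 1.19. Without GB-IL liver 4, 6 of 17 were higher past the FDR, beside 4.83% of all genes. With GB-IL liver 1 left out, 7 of 17 were higher and 1 lower at an unadjusted p below 0.05 and the median was 1.08. Livers 1 and 2 lay above every RYGB liver for 12 of the 17 genes each (70.6%), liver 3 for 4 (23.5%) and liver 4 for 3 (17.6%). Over all genes, the shares above were 34.3%, 34.4%, 23.9% and 17.5%, so livers 3 and 4 were near theirs. Krt19, the keratin that defines bile duct cells, had 11.2, 14, 3.35 and 1.82 CPM in GB-IL and 1.31, 1.15, 0.96, 1.14 and 1.61 CPM in RYGB. The groups did not overlap, with a log2 difference of 2.61 (SE 0.54). Epcam, a surface marker of the same cells, had 9.27, 11.2, 1.59 and 1.19 CPM against 1.2 to 1.78, so livers 3 and 4 were inside or at the edge of the RYGB range. Spp1, encoding osteopontin of duct cells and macrophages, had 289, 219, 202 and 49.8 CPM against 46.6 to 56.9. Liver 1 carried exocrine pancreas RNA, and without it the log2 difference was 2.36 for Krt19 and 1.73 for Epcam. Liver 2, high in both genes, had 10.82 CPM of the pancreas list.

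Stellate cell and myofibroblast genes, which make scar matrix, were split: of 26 tested, 5 were higher and 5 lower at an unadjusted p below 0.05. Without GB-IL liver 1, which carried muscle RNA, 2 were higher and 2 lower. Des, the muscle and stellate cell filament desmin, had 245, 12.9, 5.81 and 4.45 CPM in GB-IL and 4.48 to 6.86 CPM in RYGB, and its log2 difference of 3.67 was 0.54 without liver 1. Timp1, an inhibitor of matrix proteases, had 28.4, 1.78, 5.56 and 0.26 CPM against 0.142 to 0.421 (log2 difference 4.77, SE 1.07, and 2.95 without liver 1). Col1a1, the main fibrillar collagen, overlapped, at 2.47 to 27.6 CPM in GB-IL and 4.91 to 25.6 CPM in RYGB (adjusted p 0.731 by edgeR's quasi-likelihood test). Of 41 matrix genes, 6 were higher and 1 lower at an unadjusted p below 0.05, near the share over all genes. Gpc3, a heparan sulfate proteoglycan of fetal liver, did not overlap, at 21.9, 18, 3.93 and 1.97 CPM in GB-IL and 0.427 to 1.3 CPM in RYGB (log2 difference 3.63, SE 0.69). Of 21 sinusoidal endothelial genes 1 was higher and none lower at that threshold.

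**Figure D3:**
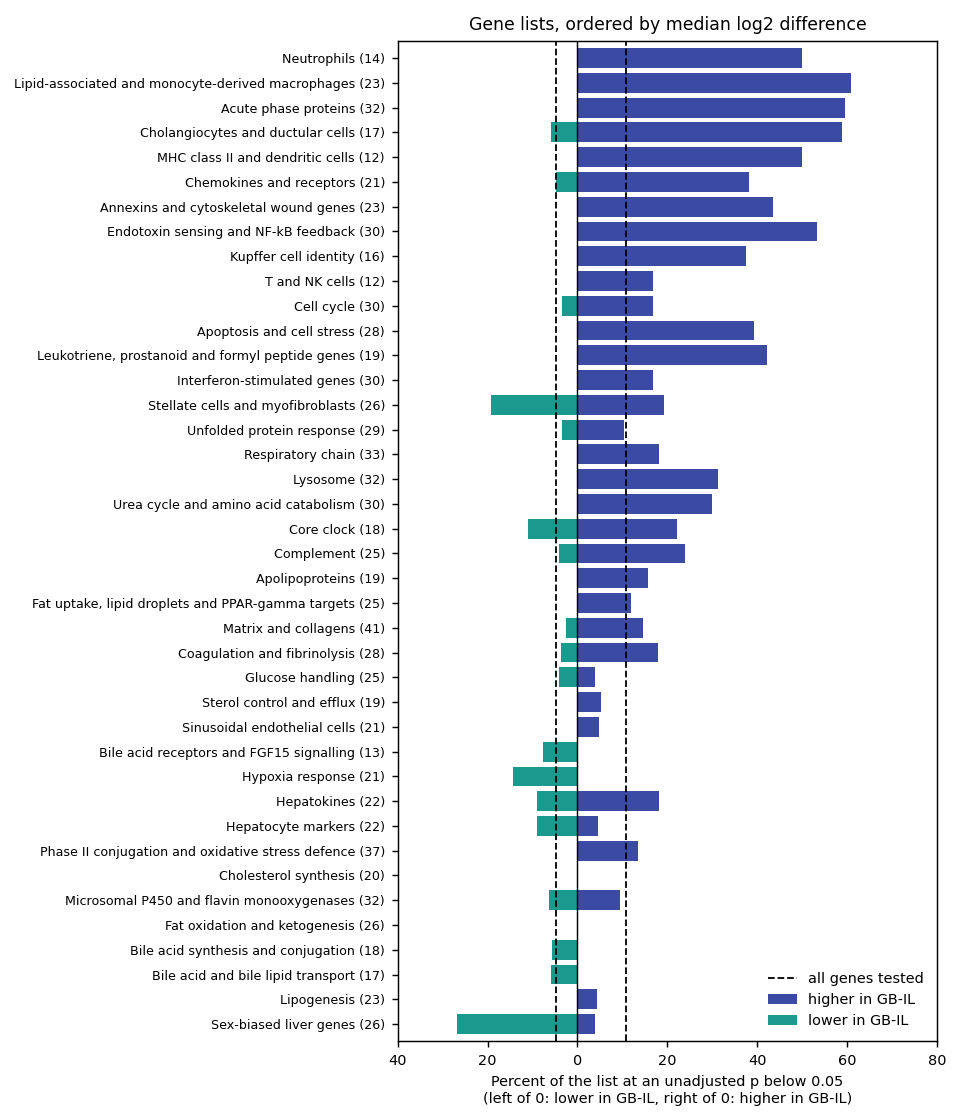
Share of each gene list (y axis, number of genes tested in brackets, ordered by median log2 difference) at an unadjusted p below 0.05 (x axis, percent), with bars right of 0 for genes higher in GB-IL, bars left of 0 for genes lower, and dashed lines at 10.7% and 4.77% for all genes tested. Acute phase proteins reach 59.4% higher with none lower, and sex-biased liver genes 26.9% lower.

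Of the bile acid genes, the subject of these operations, none tested in the lists of synthesis, transport and signalling was without overlap between the groups. Of 18 synthesis and conjugation genes, 16 had a negative difference, but 1 was lower at an unadjusted p below 0.05 (5.56% against 4.77% of all genes) and none higher, with a median log2 difference of -0.42. Livers 1 and 2 each lay below every RYGB liver for 13 of the 18 genes, liver 3 for 2 and liver 4 for 1. Over all genes, the shares below in livers 1 to 4 were 37%, 35.8%, 20.2% and 17.5%. Cyp7a1, the rate-limiting enzyme of the classic pathway, had 2.86, 15.9, 218 and 124 CPM in GB-IL. In RYGB it had 430, 234, 129, 40.2 and 118 CPM, so livers 3 and 4 lay within the RYGB range (log2 difference -1.08, SE 1.01, adjusted p 0.567 by edgeR's quasi-likelihood test, with a range of -2.00 to -0.53 as each liver was left out). Cyp8b1, which makes cholic acid, had 350, 79.8, 56.4 and 508 CPM in GB-IL and 571, 510, 735, 452 and 115 CPM in RYGB, with livers 2 and 3 below the RYGB range. Its log2 difference was -0.94 (SE 0.68, adjusted p 0.475 by edgeR's quasi-likelihood test), and -1.56 to -0.61 with each liver left out. Cyp7b1, the oxysterol hydroxylase of the alternative pathway, had 17.9, 41.5, 80.9 and 65.6 CPM in GB-IL and 116, 227, 461, 278 and 46.6 CPM in RYGB. Only RYGB liver 5 reached into the GB-IL range, and the log2 difference was -2.13 (SE 0.64). Cyp27a1 of the alternative pathway, and the conjugating enzymes Baat and Slc27a5, had log2 differences of -0.21 (SE 0.26), -0.23 (SE 0.29) and 0.33 (SE 0.28). Their groups overlapped, with adjusted p of 0.674, 0.668 and 0.537.

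Among 17 bile acid and bile lipid transporters, 1 was lower and none higher at an unadjusted p below 0.05, with a median log2 difference of -0.46. Abcb11, the canalicular bile salt export pump, had 15.6, 38.8, 364 and 470 CPM in GB-IL and 277, 674, 654, 564 and 268 CPM in RYGB. GB-IL livers 1 and 2 were far below every RYGB liver and livers 3 and 4 inside their range (log2 difference -1.13, SE 0.83, adjusted p 0.477 by edgeR's quasi-likelihood test, and -1.82 to -0.75 with each liver left out). Slco1a1, an organic anion importer with male-biased expression, had 4.82, 3.28, 58.5 and 125 CPM in GB-IL and 18.7, 384, 473, 594 and 75.3 CPM in RYGB (adjusted p 0.318). Slc10a1, the sodium-dependent uptake carrier NTCP, had 288, 265, 381 and 527 CPM against 311 to 743, with livers 1 and 2 below the RYGB range (adjusted p 0.381). Slco1a4, a basolateral anion importer, had 321, 187, 27.6 and 99.3 CPM in GB-IL and 119, 45.5, 37.3, 51.5 and 126 CPM in RYGB, so livers 1 and 2 were above the range, liver 3 below it and liver 4 inside (adjusted p 0.391). Abcc3, a basolateral exporter, overlapped, at 127 to 352 CPM against 87.6 to 346 (adjusted p 0.816), and its sign depended on which livers were used. Slco1c1 had 10 reads in GB-IL and 7 in RYGB over all livers and was not tested.

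In bile acid signalling, 12 of 13 genes tested had a negative difference, 1 of them at an unadjusted p below 0.05, and the median was -0.09. That gene was Klb, the co-receptor for FGF15 and FGF21, with 14.7, 17.5, 16.6 and 28.5 CPM in GB-IL and 33.2, 27.3, 33.3, 38.2 and 34.3 CPM in RYGB. RYGB liver 2 was just below GB-IL liver 4, and the log2 difference was -0.78 (SE 0.22). Without liver 4 it was -1.04 and past the FDR. Fgfr4, the kinase receptor that pairs with it, overlapped at 31.2 to 53.2 CPM against 41.2 to 61.6 (adjusted p 0.796). Nr1h4, encoding FXR, had 26.4, 51.3, 115 and 118 CPM in GB-IL and 82.8 to 118 CPM in RYGB. Nr0b2, encoding SHP, had 3.87, 3.68, 26.3 and 37.4 CPM in GB-IL and 18.3 to 62.1 CPM in RYGB. In both, livers 1 and 2 were below every RYGB liver and livers 3 and 4 within or at the edge of their range, and neither passed (adjusted p 0.631 and 0.452 by edgeR's quasi-likelihood test). Fgf21, a fasting hormone of liver, had 0.212, 0.632, 0.878 and 5.53 CPM in GB-IL and 3.7 to 6.72 CPM in RYGB (adjusted p 0.337). Ptpn11, the phosphatase SHP2 downstream of FGFR4, had a log2 difference of -0.06 (SE 0.23, adjusted p 0.904). Gpbar1, the membrane bile acid receptor TGR5, had 0 reads in GB-IL and 4 in RYGB and was not tested.

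**Figure D4:**
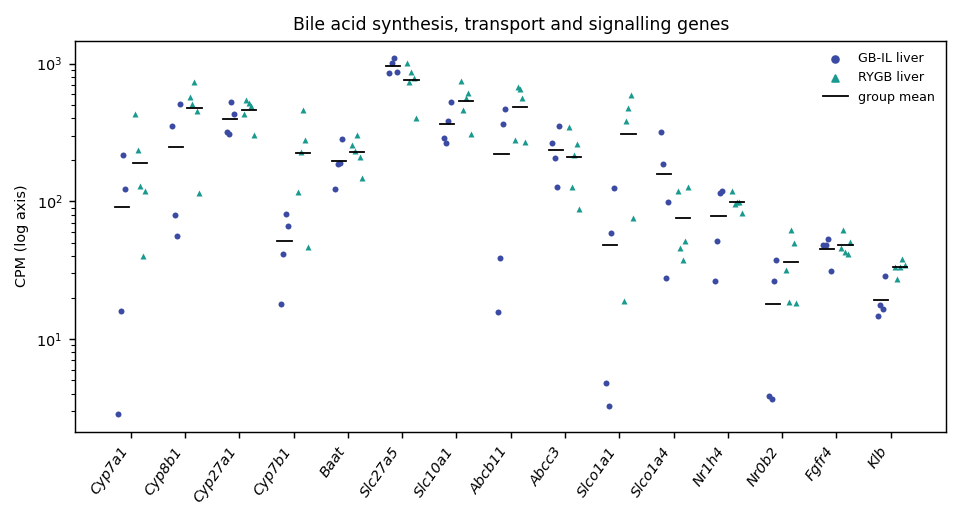
CPM in each liver (y axis, log scale) of 15 genes of bile acid synthesis, transport and signalling, with GB-IL livers as circles in order 1 to 4, RYGB livers as triangles in order 1 to 5 and bars at the group means. For Cyp7a1, Abcb11 and Nr0b2, GB-IL livers 1 and 2 lie below every RYGB liver (Abcb11 15.6 and 38.8 against 268 to 674 CPM), while GB-IL livers 3 and 4 overlap with RYGB.

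Lipid genes divided the GB-IL livers, in different ways for different lists. Fat oxidation and ketogenesis had 0 of 26 genes at an unadjusted p below 0.05 by edgeR's quasi-likelihood test, although 23 had a negative difference. Livers 1 to 3 lay below every RYGB liver for 17, 20 and 18 of the 26, while liver 4 lay above every RYGB liver for 10 and below for 0. Over all genes, the shares below in livers 1 to 3 were 37%, 35.8% and 20.2%, and the share above in liver 4 was 17.5%. Without liver 4, 6 of 26 were lower past the FDR and the median moved from -0.41 to -1.11. Lipogenic genes summed to 1621, 1651, 4626 and 16990 CPM in GB-IL and 4732 to 10200 CPM in RYGB, so that liver 4 had the highest and livers 1 to 3 the lowest sums, and 1 of 23 was higher at an unadjusted p below 0.05. Liver 4 is the liver that held reads of Lep and Adipoq, although its adipocyte list sum was the lowest within GB-IL. The part of fat cell RNA in these sums was not tested. Mlxipl, the carbohydrate-responsive factor ChREBP, had 39.4, 57.9, 157 and 183 CPM in GB-IL and 127 to 341 CPM in RYGB (adjusted p 0.327). Cholesterol synthesis had 0 of 20 genes at an unadjusted p below 0.05 by edgeR's quasi-likelihood test, and its sum varied more within RYGB (1505 to 7390 CPM) than within GB-IL (2210 to 3638 CPM). Hmgcs1, at the head of the pathway, had 162, 428, 96.3 and 484 CPM against 835, 1274, 946, 420 and 154 (adjusted p 0.339). Lpl, the lipase that frees fatty acids from lipoproteins, had 170, 181, 54.4 and 38.4 CPM in GB-IL and 26.3 to 87.2 CPM in RYGB (log2 difference 1.32, SE 0.51, adjusted p 0.3 by edgeR's quasi-likelihood test). Pnpla2, the triglyceride lipase ATGL, had 729, 352, 103 and 74.5 CPM against 55.1 to 95.7, with livers 1 to 3 above every RYGB liver.

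Of 30 genes of the urea cycle and amino acid catabolism, 9 were higher at an unadjusted p below 0.05 and none lower, which became 4 of 30 without GB-IL liver 1. Tat, which starts tyrosine breakdown, had 11165, 4347, 2274 and 1333 CPM in GB-IL and 976 to 1996 CPM in RYGB (adjusted p 0.28 by edgeR's quasi-likelihood test). Got1, the cytosolic aspartate aminotransferase, had 4377, 1468, 565 and 246 CPM against 228 to 523. Sds, a serine dehydratase used in gluconeogenesis, had 1134, 224, 406 and 117 CPM against 93.8 to 176. In all 3, livers 1 to 3 were above the RYGB range and liver 4 was not. Igfbp1, the binding protein that insulin represses, had 10306, 5614, 148 and 57 CPM in GB-IL and 113, 50.9, 225, 125 and 443 CPM in RYGB, so livers 1 and 2 alone stood out. Irs1, which carries the insulin signal from its receptor, did not overlap: it had 3.6, 1.15, 2.68 and 4.9 CPM in GB-IL and 6.43, 17, 10.1, 10.3 and 6.41 CPM in RYGB (log2 difference -1.70, SE 0.44).

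Further genes were lower in GB-IL without overlap. Axin2, a feedback target of Wnt signalling, had 3.44, 2.24, 5.02 and 4.23 CPM in GB-IL and 14, 10.9, 7.68, 9.59 and 5.74 CPM in RYGB (log2 difference -1.35, SE 0.33). Gata4, a transcription factor of sinusoidal endothelium and early liver, spanned 5.29 to 12.4 CPM against 13.8 to 19.8, and the Groucho co-repressor Tle2 4.19 to 7.53 against 9.46 to 18.4. Serpine2, an inhibitor of thrombin and urokinase, had 3.18, 1.96, 5.44 and 5.68 CPM in GB-IL and 7.19, 17.3, 16.6, 17.5 and 14.5 CPM in RYGB. Rab36, a small GTPase, spanned 1.64 to 2.88 CPM against 5.12 to 16.6 and had the smallest p of these, with a log2 difference of -2.11 (SE 0.40). Nfat5, the tonicity-responsive factor, spanned 14.9 to 22.8 CPM against 23.2 to 38.2. The remaining 4, Rtn4rl1, Nav2, Sipa1l3 and Mcc, had log2 differences of -1.20, -1.44, -0.88 and -1.26. All genes of this paragraph kept their sign when GB-IL liver 1 or liver 4 was left out. Their choice as genes without overlap all but fixed that outcome in advance.

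Genes with sex-biased expression in liver were the list with the largest share lower. Of 26 tested, 7 were lower and 1 higher at an unadjusted p below 0.05 (26.9% lower, beside 4.77% of all genes). The median log2 difference was -1.0, 6 of the 26 had a positive difference, and 5 of 28 were lower at that threshold without GB-IL liver 1. Hsd3b5 and Cyp4a12b, described next, are both male-specific, and whether female-biased genes moved alike was not tested. Hsd3b5, a male-specific steroid dehydrogenase, had 0.371, 0.23, 6.9 and 0.928 CPM in GB-IL and 6.32, 127, 231, 224 and 19.4 CPM in RYGB (log2 difference -5.83, SE 1.38). Cyp4a12b, a male-specific fatty acid hydroxylase, had 0.477, 0.115, 0.502 and 3.01 CPM in GB-IL and 2.01, 10.6, 48.3, 22.6 and 7.17 CPM in RYGB (log2 difference -4.09, SE 1.05). In RYGB both were lowest in liver 1, where 1 GB-IL liver exceeded it. Cyp2c54, a microsomal P450, was without overlap at 5.41, 17.7, 79.3 and 78.9 CPM in GB-IL and 106 to 258 CPM in RYGB (adjusted p 0.275 by edgeR's quasi-likelihood test).

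**Figure D5:**
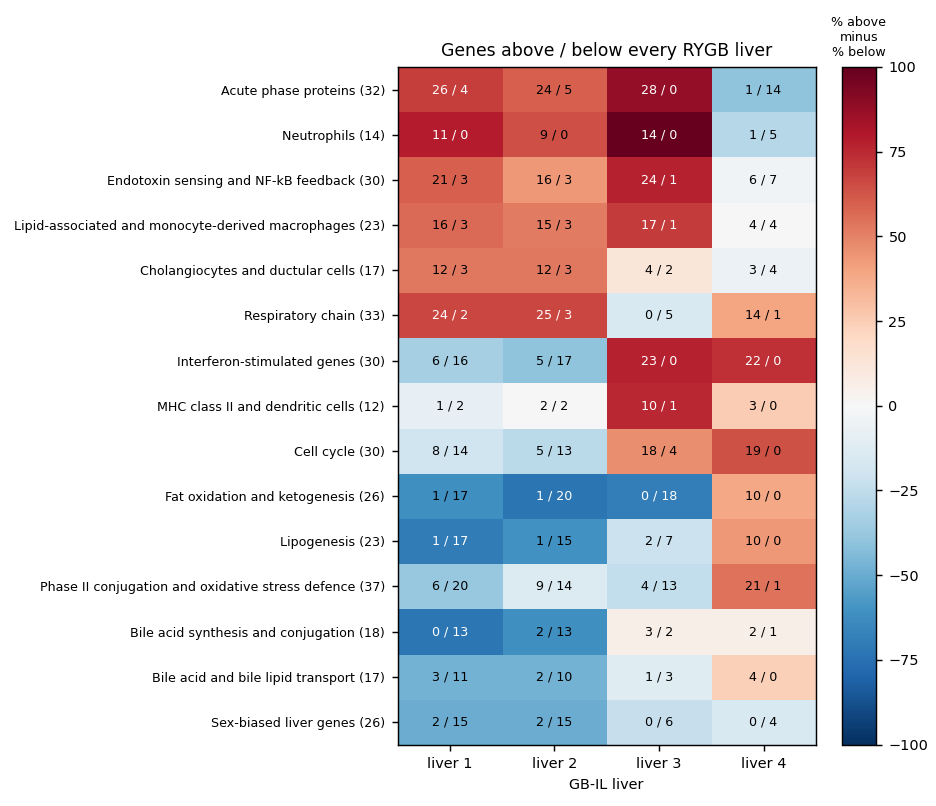
For 15 gene lists (y axis, genes tested in brackets) and each GB-IL liver (x axis), the cell gives the number of genes above / below all 5 RYGB livers, and the colour the percent above minus the percent below. Acute phase proteins read 26, 24 and 28 above for livers 1 to 3 and 1 above with 14 below for liver 4, and fat oxidation 17, 20 and 18 below for livers 1 to 3 and 10 above for liver 4.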

How the data were processed

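Liver RNA of 14 mice was sequenced, of which the 4 GB-IL and 5 RYGB livers were compared. Per the study's methods RNA was amplified and read on an Illumina HiSeq, and the authors aligned the reads to mm10 with TopHat2 and used HTSeq to count reads in genes. The values the authors deposited are raw read counts per gene, without normalization. Per the submitters' processing notes the builds are hg19 and mm10, while tool versions, annotation and strandedness of counting were not given in the sources used here. Kits for mRNA and total RNA libraries are both named in the labels with no liver assigned to either, so no kit term was fitted. Kit and group therefore cannot be told apart.

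Genes were kept by filterByExpr by group, scaled by TMM and fitted with the quasi-likelihood test of edgeR 4.0.16 in R 4.3.3 (robust estimation off), with p-values adjusted after Benjamini-Hochberg and an FDR of 0.05. Alternatives also used DESeq2 1.42.0 and limma 3.58.1. Standard errors are the log2 difference divided by the square root of the F statistic. For single genes CPM include TMM scaling, for sums of lists they are relative to the total count, and principal components used log2 CPM with a prior count of 2. The fit was tested on simulated data with the same spread between animals in both groups. That test does not cover the unequal spread of the GB-IL and RYGB livers. Of the 25212 gene IDs, 24701 matched GENCODE M21, which gave positions, and promoter windows came from RefSeq on GRCm38.p6. Figures used Python 3.11.15 and matplotlib 3.10.9.

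Genes were named by a rule: the 12 smallest p in each direction among genes with a mean of at least 5 CPM, groups without overlap and an established symbol, the 2 smallest p of each of 47 gene lists, fixed bile acid genes, and cell type markers. Not all genes so named are described, and 1 is not reported here. Mpo, Il6, Lep, Adipoq and Gpbar1 were chosen after their values were seen. Members and lists were chosen with earlier results of these data known, so lists carry no test. Alternatives were other scalings, filters and tools, a fit of all 14 livers, a replicate block and each liver left out. Counting error is small at these totals for genes above a few CPM, and the spread between animals limits the comparison.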

Additional observations from a re-analysis of the deposited data

Results flagged for a closer look

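Of 206 sets of values checked for a single extreme liver by Dixon's test, 23 had one. Chance would flag about 1 in 20 groups if values were normally distributed. The CPM were not log-transformed and many genes were named by their p in these livers, so that rate need not hold here. Among genes of inflammation, the extreme values in GB-IL were Hamp at 3230 CPM in liver 1 (others 169 to 524), Saa2 at 14500 CPM in liver 3 (others 43.9 to 1610) and Cd74 at 807 CPM in liver 3 (others 128 to 167). In RYGB they were Cd74 at 170 CPM in liver 1 (others 63.3 to 87.1) and S100a8 at 23.2 CPM in liver 5 (others 0.947 to 2.23; adjusted p 0.343 between the groups by edgeR's quasi-likelihood test).

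GB-IL liver 1 was also extreme for Des at 245 CPM, Pcna at 25.4 CPM, Npas2 at 0.742 CPM, the exocrine pancreas list at 1720 CPM and the skeletal muscle list at 2000 CPM. GB-IL liver 2 was extreme for Cyp2b10 at 34.2 CPM. GB-IL liver 3 was extreme for Hsd3b5 at 6.9 CPM, the T and NK cell list at 37.61 CPM and the MHC class II and dendritic cell list at 1527 CPM. GB-IL liver 4 was extreme for Cyp4a12b at 3.01 CPM, Fgf21 at 5.53 CPM and, as the lowest liver, the list of lipid-associated and monocyte-derived macrophages at 2350 CPM.

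RYGB liver 5 was extreme for Lpl at 87.1 CPM, Stab2 at 187 CPM (adjusted p 0.346 between the groups) and Cyp2b10 at 1.71 CPM. It was extreme as well for the neutrophil list at 174.5 CPM, the stellate cell and myofibroblast list at 1062 CPM and the intestinal list at 4956 CPM. What sets these livers apart was not tested.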

How the results depend on the processing

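The number of genes past the FDR was 0 with all livers and 0 under the other scalings, filters, voom, robust estimation, all 14 livers and the replicate block, but 333 by DESeq2 and 241 by edgeR's exact test, which shared 230. Leaving out each liver gave 0 to 983 genes past the FDR, 1276 to 4706 at an unadjusted p below 0.05 and 459 to 2636 without overlap. The highest of each came without GB-IL liver 4 (983, 4706 and 2636). With GB-IL liver 2 or RYGB liver 2, 3 or 4 left out the numbers at an unadjusted p below 0.05 were 1361, 1418, 1366 and 1276, against 2198 with all livers. Why they fell was not tested. The numbers without overlap were 1146 and 680 with RYGB livers 1 and 5 left out, and 721 and 716 with GB-IL livers 1 and 3 left out, against 404. With a liver left out, groups are smaller and non-overlap is easier to reach whatever the values. Numbers without overlap, 2636 included, therefore cannot be compared directly with 404. Livers with the same number were not paired by the labels, and their deviations correlated at 0.0183, 0.0096, 0.149 and 0.39. The replicate block gave 0 genes past the FDR and 2064 at an unadjusted p below 0.05, 1001 higher and 1063 lower, against 1521 and 677 without it.

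Of 87 genes followed through every alternative, 5 changed sign. Vsig4 and Timd4 were not followed, nor were genes of the naming rule that the text does not describe. Abcc3 was -0.165 with voom and -0.0119 with the replicate block. Clec4f was -0.0792 with the replicate block. Leaving out each liver, Abcc3 spanned -0.0734 to 0.45, Ptpn11 -0.296 to 0.0749, Fgfr4 -0.195 to 0.0321, Clec4f -0.292 to 0.435 and Col1a1 -0.00995 to 0.887 on the log2 scale. Of 45 list medians, 13 changed sign under some alternative.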

Other observations

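Gene groups not described above also divided the GB-IL livers. Of 30 interferon-stimulated genes tested, livers 3 and 4 lay above every RYGB liver for 23 and 22, whereas livers 1 and 2 lay below every RYGB liver for 16 and 17, beside the same shares of all genes as for the cell cycle list below. With all livers 5 of the 30 were higher at an unadjusted p below 0.05, and the median log2 difference of 0.45 was 0.09 without GB-IL liver 4. Gbp2, a guanylate-binding protein induced by interferon, had 12.9, 4.6, 54.1 and 13.5 CPM in GB-IL and 4.21 to 7.73 CPM in RYGB. Of 30 cell cycle genes, 18 and 19 were above every RYGB liver in livers 3 and 4, where 23.9% and 17.5% of all genes were. In livers 1 and 2, 14 and 13 of the 30 were below, where 37% and 35.8% of all genes were. Of the 30, 2 did not overlap between groups, Pcna and Mcm7, and Gmnn, which is not in the list, did not either. Gmnn, an inhibitor of replication licensing, had 12.1, 10.4, 9.91 and 7.38 CPM in GB-IL and 3.41 to 6.04 CPM in RYGB. Pcna, the replication clamp, had 22.3 to 25.4 CPM against 14.6 to 18.2 (adjusted p 0.276 by edgeR's quasi-likelihood test), and Mcm7, a helicase subunit, 15.8 to 27.5 CPM against 12.5 to 14.8.

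Respiratory chain genes divided the livers differently: of 33, livers 1, 2 and 4 lay above every RYGB liver for 24, 25 and 14, and liver 3 for 0, beside 34.3%, 34.4%, 17.5% and 23.9% of all genes. Genes of phase II conjugation and oxidative stress defence were above every RYGB liver for 21 of 37 in liver 4 and below for 20, 14 and 13 in livers 1 to 3, beside 17.5% of all genes above in liver 4 and 37%, 35.8% and 20.2% below in livers 1 to 3. Gsta1, a glutathione transferase, had 4.13, 5.06, 0.251 and 9.05 CPM in GB-IL and 0.21 to 0.698 CPM in RYGB. Cyp2b10, a target of the xenobiotic receptor CAR, had 5.14, 34.2, 0.125 and 4.6 CPM in GB-IL and at most 1.72 CPM in RYGB, with 0 in RYGB liver 4 (adjusted p 0.271). In both genes liver 3 was the GB-IL liver inside the RYGB range.

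Of 29 genes of the unfolded protein response, 3 were higher and 1 lower at an unadjusted p below 0.05. These shares of 10.3% and 3.45% were near the 10.7% and 4.77% of all genes. Herpud1, which aids disposal of misfolded proteins, did not overlap, at 950, 462, 382 and 674 CPM in GB-IL and 245 to 370 CPM in RYGB (adjusted p 0.276). Of 28 apoptosis and cell stress genes, 11 were higher at that threshold and none lower, which became 6 of 28 without GB-IL liver 1. Gadd45g, a stress-induced growth arrest gene, had 573, 240, 32.4 and 2.3 CPM in GB-IL and 5.4 to 19.6 CPM in RYGB. At an unadjusted p below 0.05, 10 of 32 lysosome genes were higher (31.2%) and none lower. Of 23 annexins and cytoskeletal wound genes, 10 were higher (43.5%) and none lower at that threshold. Over all genes these shares were 10.7% and 4.77%.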
